A study of Mus musculus with 6 samples.

Results

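CTCF occupancy was examined at the 7 mouse genes that make and handle O-GlcNAc, the single-sugar modification that the study removed from CTCF. The genes were Gfpt1, Gfpt2, Gnpnat1, Pgm3 and Uap1 of the hexosamine pathway, Ogt, which encodes O-GlcNAc transferase, and Mgea5, which encodes O-GlcNAcase. A region was assigned to a gene when it overlapped the gene body of the GENCODE vM1 annotation (mouse build mm9) or lay within 30 kb of it. This gave 33 of the 57662 regions that the authors had joined from 4 peak lists, of which 8 belonged to Mgea5, 7 to Gfpt2, 5 to Gfpt1, 5 to Gnpnat1, 3 to Pgm3, 3 to Uap1 and 2 to Ogt. The rule uses gene names and positions and no measured value, but the genes were chosen with earlier results of these data known.

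The libraries were CTCF ChIP-seq libraries of mouse embryonic stem cells (mESCs), in which DNA bound to CTCF is pulled down and sequenced. All cells came from CTCF-mAID mESCs, whose own CTCF carries a degron and is destroyed when auxin is added, and all were rescued by an introduced CTCF. According to the paper, cells of both genotypes were treated with auxin to replace their own CTCF before these experiments. WT_CTCF cells received the wild-type protein and MUT_CTCF cells a protein in which the threonine at T668 was replaced by alanine. Each genotype had 2 biological replicates and 1 input library, which was not analysed here. The cells were picked clones, so that genotype and clone cannot be told apart in these libraries. The paper reports that further clones of both genotypes gave matching results, which were not examined here. Peak lists of CTCF hold no expression with which the labelled cell type could be checked.

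The hexosamine pathway turns fructose phosphate, glutamine and acetyl-CoA into UDP-GlcNAc, the donor of all O-GlcNAc. OGT transfers the sugar to serines and threonines of nuclear and cytoplasmic proteins, and O-GlcNAcase takes it off again. CTCF binds a long directional motif through its zinc fingers and, together with cohesin, anchors chromatin loops, preferably between motifs that point towards each other.

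The sequences under the regions were read from mm9. The 13-base CTCF consensus was searched on both strands, and 21 of the 33 regions (63.6%) held a match with at most 1 mismatch, against 60.6% of all joined regions. A match with no mismatch was found in 2 regions (6.06%, against 12.7%). Within 2 mismatches 30 regions held a match (90.9%, against 86.0%), and 3 regions held none. In 10 of the 33 regions (30.3%) the best match began with the same 12 bases, CCAGAAGAGGGC, which stood on either strand of 23.3% of all joined regions. This 12-base string was picked after the sequences had been read. The 10 sites are shown because regions with the same core differed in whether MUT_CTCF libraries held a peak. They are printed 5′ to 3′ on the strand of the match, with 8 flanking bases in lower case and the matched 13 bases in capitals. The first 4 sites lay in regions with peaks in WT_CTCF libraries alone, and the last 6 in regions with peaks in all 4 libraries. These regions also differed in how often stretches of their sequence recur in the genome, as given with Mgea5 below.

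Mgea5 intron, chr19:45849676-45849704, minus strand: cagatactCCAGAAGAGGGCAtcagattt
Mgea5 upstream, chr19:45863563-45863591, minus strand: cagactcaCCAGAAGAGGGCGtcagaagg
Gfpt1 intron, chr6:87009928-87009956, minus strand: actgcaggCCAGAAGAGGGCAccagatct
Gfpt2 upstream, chr11:49581370-49581398, minus strand: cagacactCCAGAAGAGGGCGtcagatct
Mgea5 downstream, chr19:45796880-45796908, plus strand: ggaagaggCCAGAAGAGGGCGtcagatcc
Gfpt1 upstream, chr6:86967116-86967144, minus strand: taaagagaCCAGAAGAGGGCGctagatcc
Gnpnat1 coding exon region, chr14:46002782-46002810, minus strand: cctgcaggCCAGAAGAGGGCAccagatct
Gnpnat1 upstream, chr14:46019696-46019724, minus strand: aacagagaCCAGAAGAGGGCActggatcc
Gnpnat1 upstream, chr14:46021724-46021752, plus strand: cagtcataCCAGAAGAGGGCAccagatcc
Uap1 intron, chr1:172085614-172085642, plus strand: cacagaggCCAGAAGAGGGCGtggggtcc

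A second set is shown because it belongs to the regions described most closely in the values, namely the Ogt intron, the pair of sites past the end of Mgea5, the Pgm3 promoter, the highest Gfpt1 region and the Mapk9 start beside Gfpt2.

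Ogt intron, chrX:98867431-98867459, plus strand: cagacacaCCACAAGAGGGCGtcaaatct
Mgea5 downstream, chr19:45821016-45821044, plus strand: aaacacgcCCACCAGAGGGCGctagttcc
Mgea5 downstream, chr19:45822158-45822186, minus strand: cccagggaCCACCAGGTGGCActgtggcc
Pgm3 promoter, chr9:86466771-86466799, minus strand: agttctggCCTCCAGGGGGCActgcatgc
Gfpt1 downstream, chr6:87051392-87051420, plus strand: aaagttggTCAGCAGGGGGCAgcacccta
Gfpt2 downstream at Mapk9, chr11:49660074-49660102, plus strand: cggcgagcCGCCTAGGGGGCGccactctg

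A value per library came from the peak score, the number that the authors' peak caller gave each peak. Its definition and the cutoff were not stated, the lowest score in every list was 13, and the read depth is unknown here. A low score or a missing peak is therefore a result of peak calling, and it does not show that CTCF was absent. The lists held 32712 to 54001 peaks, with fewer in both MUT_CTCF libraries. The authors' table also gives 1 mean per region, the spike-in scaled read count averaged over all 4 libraries, which is called the authors' mean here and is not split by genotype.

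Of the 33 regions, 20 held a peak in all 4 libraries (60.6%, against 52.6% of all joined regions). A further 8 held one in each WT_CTCF library but not in MUT_CTCF (24.2%, against 19.5%), and 5 held a peak in 1 WT_CTCF library and in no MUT_CTCF library (15.2%, against 18.8%). No region held a peak in MUT_CTCF alone, a pattern found in 182 of all joined regions. No region had any other pattern, against 8.8% of all joined regions. No share was tested, and nothing particular to these genes is read from them. By library, 31 and 30 of the 33 regions held a peak in WT_CTCF replicates 1 and 2, and the same 20 held one in both MUT_CTCF replicates.

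The regions with peaks in WT_CTCF alone were mostly low. Their authors' means ran from 15.0 to 436.5 with a median of 28.2, whereas those of the 20 shared regions ran from 73.5 to 813 with a median of 233. The same held over all joined regions, whose medians were 35.0 and 206. The mean takes in the MUT_CTCF libraries, so part of this gap is built into the grouping. By the higher WT_CTCF score of each region the medians were 57 and 706, and over all joined regions 68 and 645. The 12-base core was present in 4 of the 13 regions with WT_CTCF peaks alone and in 6 of the 20 shared regions, against 28.9% and 18.4% of all joined regions of these patterns. Over all joined regions, 47.5% of the 13424 regions with the core and 35.5% of the 44238 without it had no MUT_CTCF peak. Among regions with an authors' mean of at least 50, these shares were 16.3% and 12.2%.

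**Figure D1:**
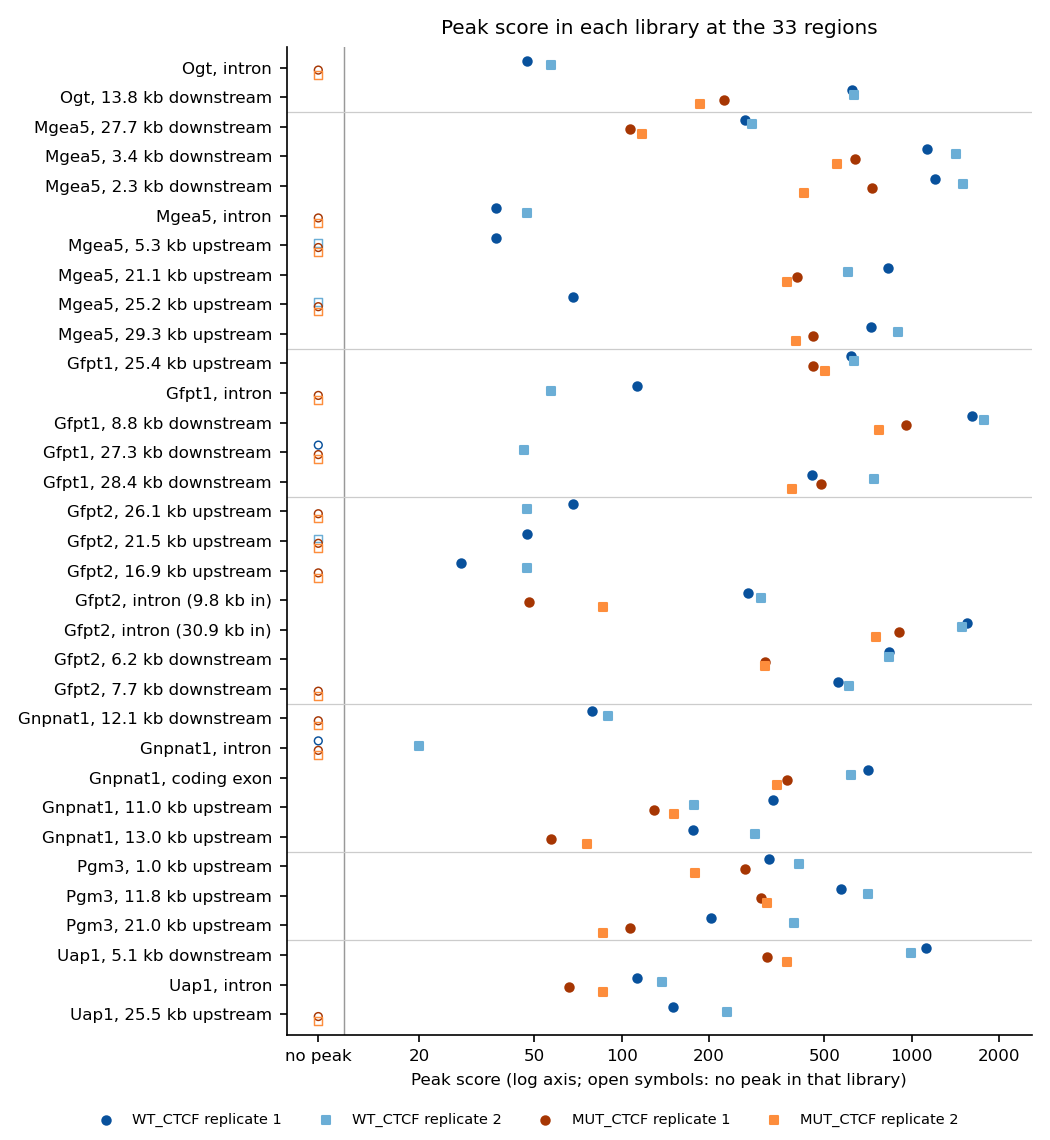
The plot shows the peak score on a log axis for each of the 33 regions, named by gene and position, with 1 symbol per library and open symbols at the left where a library had no peak. Apart from 1 region 28.4 kb past the end of Gfpt1, both MUT_CTCF scores of every shared region lie below both WT_CTCF scores, and the regions without a MUT_CTCF peak have WT_CTCF scores of 20 to 231 except for that at Mapk9 beside Gfpt2, at 556 and 610.

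In the 20 shared regions the WT_CTCF scores had medians of 620 and 634 and the MUT_CTCF scores medians of 315 and 330. Both MUT_CTCF scores lay below both WT_CTCF scores in 19 of the 20 regions, as they did in 96.2% of the 30317 regions with peaks in all libraries. Under limma, fitted to log2 scores over all 30317 regions, 17 of the 20 regions passed an adjusted p of 0.05 with a lower score in MUT_CTCF, against 90.4% of all regions tested. None of the 20 passed with a higher score, against 0.0627% of all regions tested. The same held at an unadjusted p of 0.05, against 20 of all 30317 regions. The median log2 difference was -1.01 in the 20 regions, a MUT_CTCF score 0.498 times that of WT_CTCF, and -1.18 (0.441 times) over all regions tested.

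The lower scores were thus a shift of the whole lists. From spike-in scaled reads and from immunoblots of chromatin-bound CTCF, the paper reports the opposite direction, with more binding in MUT_CTCF. A lower peak score is therefore not read here as less CTCF binding. The next question was whether any of the 7 genes departed from the shift. When each library was centred on its median, 12 of the 20 log2 differences were above 0, against 52.8% of all regions tested, since centring moves all regions alike. The values ran from -0.95 to 0.83, with a median of 0.21 against 0.03 over all regions. After centring, limma called 0 of the 20 regions lower, against 3.22% of all regions tested, and 0 higher, against 1.95%. With an unadjusted p below 0.05, 1 of the 20 was lower and 2 were higher, against 4067 and 4115 of the 30317 regions tested. When 1 library was left out, its genotype had a single library, whose spread was assumed to be like that of the other genotype. Without WT_CTCF replicate 2 limma called 0 of the 20 regions and 0 of all 30317 regions (13 and 18300 lower at an unadjusted p below 0.05), and without WT_CTCF replicate 1 it called 8 of the 20, against 39.1% of all regions tested. The differences themselves stayed about as large, with medians of -1.03 and -1.13 over the 20 regions, and that past the end of Ogt was -1.60 without WT_CTCF replicate 2 (limma adjusted p = 0.0568).

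**Figure D2:**
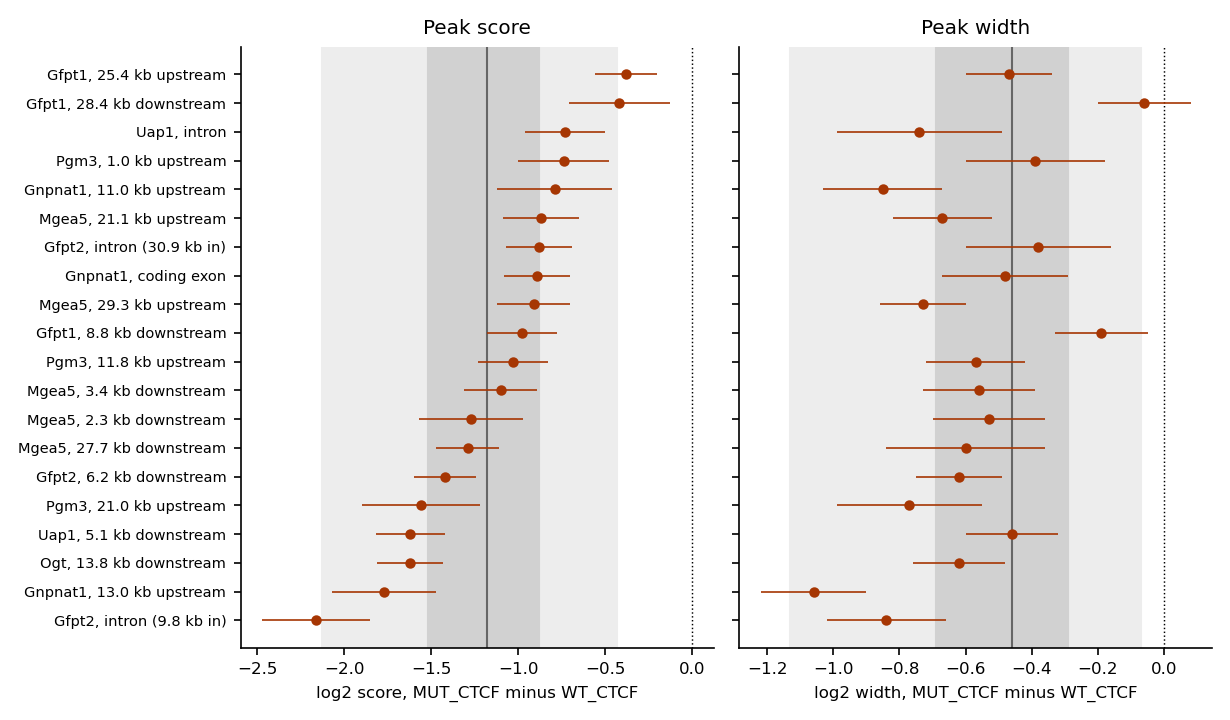
The plot shows for the 20 shared regions the log2 difference, MUT_CTCF minus WT_CTCF, of peak score (left) and peak width in bp (right), with points for the limma estimate from 2 libraries per genotype and bars for its standard error. The line marks the median of all 30317 regions tested (-1.18 for score, -0.46 for width), the dark band their middle 50% and the light band their middle 90%; the region in the Gfpt2 intron at -2.16 sits lowest for score and the region 25.4 kb upstream of Gfpt1 at -0.38 highest.

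Gfpt1 and Gfpt2 encode the glutamine-fructose-6-phosphate aminotransferases, which commit sugar to the hexosamine pathway. The highest of the 33 regions by authors' mean (813) lay 8.8 kb past the end of Gfpt1 (chr6:87051016-87052094), within 3 kb upstream of a start of D6Ertd527e. Its scores were 1609 and 1772 in WT_CTCF and 953 and 769 in MUT_CTCF. The groups did not overlap, and the log2 difference was -0.98 (SE 0.20, limma adjusted p = 0.00544), or 0.23 after centring (adjusted p = 0.475). The best motif match of this region lay 276 bp from the mean summit, against a median of 9.35 bp over the 20 shared regions.

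The region 25.4 kb upstream of Gfpt1 (chr6:86966689-86967447), inside Nfu1 but outside its exons, had scores of 618 and 632 in WT_CTCF and 458 and 503 in MUT_CTCF. The groups did not overlap, and the log2 difference of -0.38 (SE 0.18, limma adjusted p = 0.0881) was the smallest of the 20 and did not pass. After centring the difference was 0.83 (SE 0.19, limma adjusted p = 0.0565), the largest positive value among the 20. It carries the 12-base core, as does the intronic Gfpt1 region (chr6:87009828-87010080), which scored 113 and 57 in WT_CTCF and had no MUT_CTCF peak. The region 27.3 kb past the end of Gfpt1 (chr6:87069521-87069836) had a peak in WT_CTCF replicate 2 alone, with a score of 46, and no motif match within 2 mismatches. Its neighbour 740 bp away, named after its values were seen, was the region where the groups overlapped, with scores of 455 and 741 in WT_CTCF and 488 and 386 in MUT_CTCF and a log2 difference of -0.42 (SE 0.29, limma adjusted p = 0.204).

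Gfpt2 held the region with the highest authors' mean (436.5) among the 13 without a MUT_CTCF peak. It lay 7.7 kb past the end of Gfpt2 and covered the start of the next gene, Mapk9, which encodes a stress-activated kinase (chr11:49659813-49660309). Its scores were 556 and 610 in WT_CTCF. The other 12 regions without a MUT_CTCF peak scored at most 231 in any WT_CTCF library. Of the 3925 joined regions with an authors' mean of at least 400, 23 (0.586%) had no MUT_CTCF peak. The region was 65.4% G+C, the highest value of the 33, and among the 180 joined regions with such a mean and at least 60% G+C, 21 (11.7%) had no MUT_CTCF peak. Its best motif match had 2 mismatches.

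Only 835 bp separated this region from another one upstream of Mapk9 (chr11:49658331-49658977) that held peaks in all 4 libraries. That neighbour, named after its values were seen, scored 838 and 834 in WT_CTCF and 313 and 313 in MUT_CTCF, a log2 difference of -1.42 (SE 0.18, limma adjusted p = 0.00172) or -0.21 after centring (adjusted p = 0.514). A peak was thus called in MUT_CTCF on the side before the Mapk9 start and not on the start itself.

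Within Gfpt2, the intronic region 30.9 kb from the gene start (chr11:49638189-49638937) had an authors' mean of 434.75. It scored 1549 and 1490 in WT_CTCF and 902 and 753 in MUT_CTCF, a log2 difference of -0.88 (SE 0.19, limma adjusted p = 0.00658) or 0.33 after centring (adjusted p = 0.318). The other intronic region, 9.8 kb from the gene start (chr11:49617278-49617689) and also named after its values were seen, scored 273 and 302 in WT_CTCF and 48 and 86 in MUT_CTCF. Its log2 difference of -2.16 (SE 0.31, limma adjusted p = 0.00205) was the lowest of the 20 and stayed the lowest after centring, at -0.95 (adjusted p = 0.114).

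Upstream of Gfpt2, 3 low regions held WT_CTCF peaks alone. That 26.1 kb upstream (chr11:49581240-49581599) scored 68 and 47 and carries the 12-base core, that 21.5 kb upstream (chr11:49585951-49586140) scored 47 in replicate 1 alone, and that 16.9 kb upstream (chr11:49590618-49590790) scored 28 and 47. No region stood at a Gfpt2 start.

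**Figure D3:**
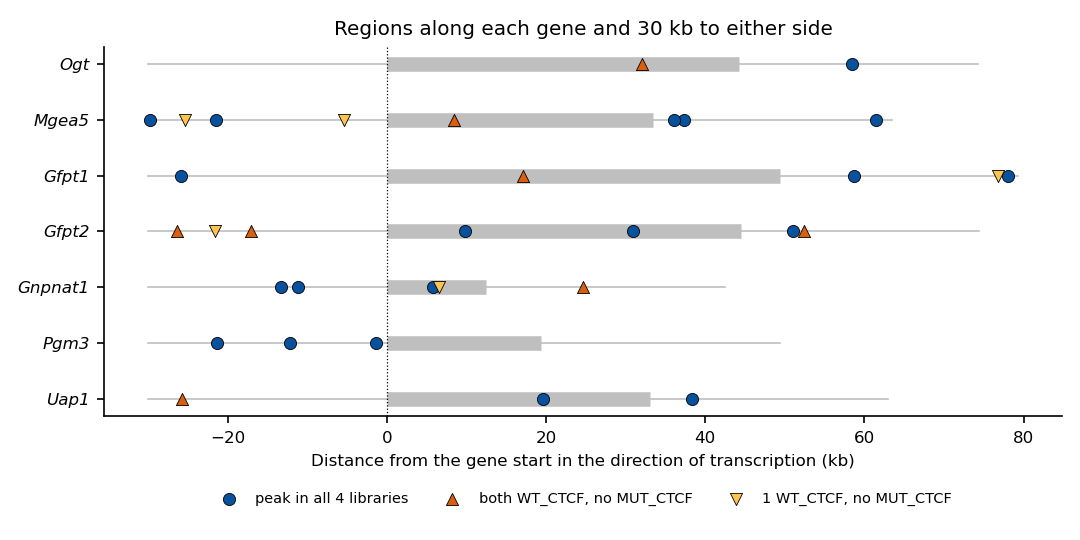
The map shows the 33 regions along each gene, with distance in kb from the gene start in the direction of transcription, the gene body as a thick bar and 30 kb to either side as a line. Symbols give the libraries with a peak, and a region next to a gene start is seen at Pgm3 alone.

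Gnpnat1 encodes the acetyltransferase that acts after the aminotransferases. Its highest region (authors' mean 233.25, chr14:46002338-46003077) lay inside the gene and overlapped a coding exon. It scored 705 and 620 in WT_CTCF and 372 and 344 in MUT_CTCF, a log2 difference of -0.89 (SE 0.19, limma adjusted p = 0.00591) or 0.33 after centring (adjusted p = 0.336). The region 11 kb upstream (chr14:46019452-46019999) scored 332 and 177 in WT_CTCF and 129 and 152 in MUT_CTCF. The 2 WT_CTCF values were far apart, and the log2 difference of -0.79 (SE 0.33, limma adjusted p = 0.0573) did not pass, nor did 0.42 after centring (adjusted p = 0.469).

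Another core-bearing region of Gnpnat1 lay 13 kb upstream (chr14:46021497-46021972) and was named after its values were seen. It scored 176 and 288 in WT_CTCF and 57 and 76 in MUT_CTCF, a log2 difference of -1.77 (SE 0.30, limma adjusted p = 0.00294) or -0.56 after centring (adjusted p = 0.243). The 3 Gnpnat1 regions with the same 12 bases thus ranged from -0.79 to -1.77. The remaining regions had no MUT_CTCF peak: that 12.1 kb past the gene end in Styx (chr14:45983623-45983893) scored 79 and 90, and an intronic one (chr14:46001751-46001904) scored 20 in WT_CTCF replicate 2 alone, the lowest score of all 33.

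Pgm3 encodes the phosphoacetylglucosamine mutase. It was the sole gene of the 7 with a region in the 3 kb upstream of one of its own starts, whereas 27.5% of 22238 protein-coding gene names had one. This region (chr9:86466446-86467127) began 997 bp from the gene and overlapped an exon of Rwdd2a. It scored 323 and 409 in WT_CTCF and 266 and 179 in MUT_CTCF, a log2 difference of -0.74 (SE 0.26, limma adjusted p = 0.0364) or 0.48 after centring (adjusted p = 0.244).

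The Pgm3 region with the highest authors' mean (203.75, chr9:86477224-86477883) lay 11.8 kb upstream, in Me1. It scored 569 and 706 in WT_CTCF and 303 and 317 in MUT_CTCF, a log2 difference of -1.03 (SE 0.20, limma adjusted p = 0.00441) or 0.18 after centring (adjusted p = 0.583). The region 21.0 kb upstream, also in Me1 (chr9:86486480-86486985), was named after its values were seen and scored 203 and 393 in WT_CTCF and 107 and 86 in MUT_CTCF. Its log2 difference was -1.56 (SE 0.34, limma adjusted p = 0.00661), or -0.35 after centring (adjusted p = 0.490). All 3 Pgm3 regions held peaks in every library, the only gene of the 7 of which this was true.

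Uap1 encodes the pyrophosphorylase that makes UDP-GlcNAc. Its highest region (authors' mean 238.75, chr1:172066389-172066982) lay 5.1 kb past the gene end and scored 1122 and 992 in WT_CTCF and 317 and 372 in MUT_CTCF. The log2 difference was -1.62 (SE 0.20, limma adjusted p = 0.00166), or -0.41 after centring (adjusted p = 0.273). The intronic region (chr1:172085302-172085696) scored 113 and 138 in WT_CTCF and 66 and 86 in MUT_CTCF, a log2 difference of -0.73 (SE 0.23, limma adjusted p = 0.0223) or 0.48 after centring (adjusted p = 0.221). With an authors' mean of 73.5 it was the weakest region that kept a peak in every library. The region 25.5 kb upstream, in Uhmk1 (chr1:172130595-172130946), had nearly the same mean (60.5) and higher WT_CTCF scores of 150 and 231, yet no MUT_CTCF peak.

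Ogt, the single gene for the transferase, lies on the X chromosome and had 2 regions. That 13.8 kb past the gene end (chrX:98893487-98894091) scored 622 and 635 in WT_CTCF and 225 and 186 in MUT_CTCF. The replicates were close, and the log2 difference was -1.62 (SE 0.19, limma adjusted p = 0.00164), or -0.41 after centring (adjusted p = 0.226). Its best motif match had 2 mismatches and lay 133 bp from the mean summit. The intronic region, 32.1 kb from the gene start (chrX:98867361-98867541), scored 47 and 57 in WT_CTCF and had no MUT_CTCF peak, and its motif match had 1 mismatch.

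Mgea5, which encodes the enzyme that removes the sugar, had 8 regions. Its highest were a pair 3.4 and 2.3 kb past the gene end (chr19:45820452-45821316 and chr19:45821874-45822447), the latter overlapping an exon of Npm3. They were the 2 regions of the 33 with a perfect motif match, on the plus and then the minus strand, so that the matches pointed towards each other across 1129 bp. The first scored 1129 and 1427 in WT_CTCF and 636 and 553 in MUT_CTCF, a log2 difference of -1.10 (SE 0.21, limma adjusted p = 0.00431) or 0.11 after centring (adjusted p = 0.741). The second scored 1208 and 1501 in WT_CTCF and 728 and 426 in MUT_CTCF, a log2 difference of -1.27 (SE 0.30, limma adjusted p = 0.00853) or -0.06 after centring (adjusted p = 0.904).

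The intronic Mgea5 region (chr19:45849587-45849795) scored 37 and 47 in WT_CTCF, and that 5.3 kb upstream (chr19:45863512-45863661) scored 37 in replicate 1 alone. Both carry the 12-base core. Stretches of 32 bases sampled every 10 bp had a median of 56.5 copies in the genome in the intronic region, and 9 of the 33 regions held at least 1 stretch with over 100 copies. In the 4 core-bearing regions with WT_CTCF peaks alone, the most copied stretch had 374 to 19506 copies. In the 6 core-bearing regions with peaks in all 4 libraries it had 1 to 30, apart from 5852 in the Gnpnat1 region 13 kb upstream. Copies were not counted over all joined regions. The authors had removed multiply aligned reads, and the part of repeated sequence in these calls was not tested. One more low region 25.2 kb upstream, in Kcnip2 and named after its values were seen, had a peak in WT_CTCF replicate 1 alone with a score of 68. The other 3 regions (27.7 kb past the end, and 21.1 and 29.3 kb upstream) held peaks in all 4 libraries, with scores of 267 to 895 in WT_CTCF and 107 to 458 in MUT_CTCF and log2 differences of -1.29 to -0.87 (-0.07 to 0.34 after centring).

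Peaks were also narrower. Across the 20 shared regions the median peak width was 556 and 589 bp in WT_CTCF and 407 and 382 bp in MUT_CTCF, and over all regions tested it was 526 and 554 bp against 401 and 386 bp. Both MUT_CTCF widths lay below both WT_CTCF widths in 19 of the 20 regions, against 84.8% of all regions tested. Under limma on log2 width, 12 of the 20 passed an adjusted p of 0.05 with a narrower peak in MUT_CTCF, against 42.0%, and after centring 0 of the 20 did, against 1.1%. After centring, 1 of the 20 was narrower at an unadjusted p below 0.05, against 13.2%. With 1 WT_CTCF library left out, limma called 0 of the 20 and 0 of all 30317 regions. At an unadjusted p below 0.05, 13 of the 20 were lower without replicate 1 (44.2% of all regions) and 9 without replicate 2 (34.7%), and without MUT_CTCF replicate 2 limma called 3 of the 20, against 21.4%. The median difference over the 20 was -0.59 with all libraries and -0.63 and -0.53 without WT_CTCF replicates 1 and 2.

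The Gnpnat1 region 13 kb upstream narrowed most, from 400 and 476 bp in WT_CTCF to 192 and 228 bp in MUT_CTCF, a log2 difference of -1.06 (SE 0.16, limma adjusted p = 0.0119) or -0.60 after centring (adjusted p = 0.140). Least changed was the Gfpt1 region 28.4 kb past the gene end, at 508 and 445 bp in WT_CTCF and 472 and 438 bp in MUT_CTCF, with a log2 difference of -0.06 (SE 0.14, limma adjusted p = 0.687) that turned positive after centring (0.39) and without WT_CTCF replicate 1 (0.03). The Gfpt1 region 8.8 kb past the gene end was the widest, with 1017 and 1079 bp in WT_CTCF and 980 and 864 bp in MUT_CTCF.

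Summit positions differed little between libraries. The 4 summits of a shared region spanned a median of 22.0 bp, against 20 bp over all regions tested, and the genotype means differed by a median of 13.5 bp, against 8.5 bp. The exception was the wide Gfpt1 region 8.8 kb past the gene end, whose summits spanned 359 bp. There the 2 WT_CTCF summits lay 359 bp apart and the 2 MUT_CTCF summits 11 bp apart, so the spread was between WT_CTCF replicates.

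Further genes of the same chemistry were described by the same rule. Of the 19 genes of an amino sugar list found in the annotation, which holds kinases, deaminases, epimerases and sialic acid enzymes, 91 regions were found, 47 of them with peaks in all 4 libraries (51.6%), 22 in both WT_CTCF libraries alone (24.2%) and 14 in 1 WT_CTCF library alone (15.4%). The 9 genes for known partners of OGT had 54 regions, with 22 (40.7%), 17 (31.5%) and 11 (20.4%) in these patterns. Under limma the score was lower in MUT_CTCF in 44 of 47 and 21 of 22 shared regions, against 90.4% of all regions tested, with a median log2 difference of -1.13 in both lists, against -1.18. After centring 0 of the 47 and 0 of the 22 were called lower (3.22% of all regions tested), and 1 of the 47 and 0 of the 22 higher (1.95%). At an unadjusted p below 0.05, 15 and 3 differed in either direction, against 27.0% of all regions tested.

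**Figure D4:**
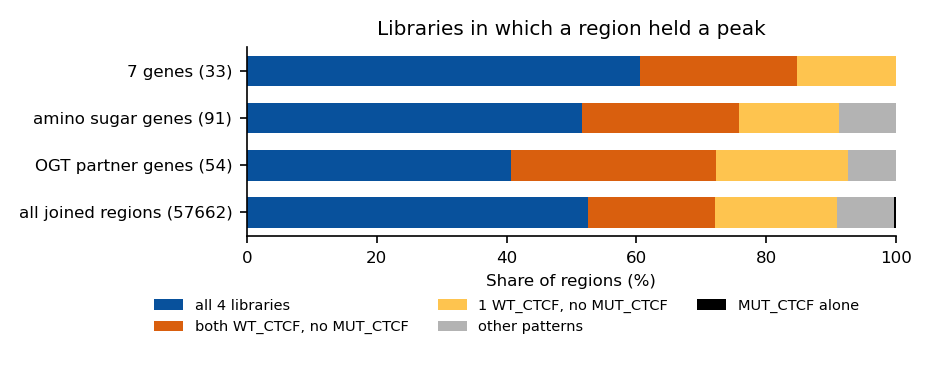
Stacked bars show the share of regions (%) by the libraries that held a peak, for the 7 genes, both further gene lists and all joined regions, with the number of regions in brackets. The share with peaks in all 4 libraries runs from 40.7% at OGT partner genes to 60.6% at the 7 genes, with 52.6% over all joined regions.

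The region called higher after centring lay in an intron of Nans, which encodes sialic acid synthase (log2 difference 1.26, SE 0.20, limma adjusted p = 0.0317). The 4 regions with the largest difference without centring were 3.54 kb past Cmas (317 and 302 in WT_CTCF, 39 and 86 in MUT_CTCF), 12.8 kb past Tet3 (376 and 489, 141 and 71), 15.5 kb before Nagk (789 and 857, 225 and 177) and 4.23 kb past Nans (846 and 1180, 275 and 215). Their log2 differences were -2.42, -2.10, -2.04 and -2.04, and after centring none passed (limma adjusted p of 0.0592 to 0.137). Nans thus had, within one 30 kb window, a region among the largest differences without centring and the single region called higher with it.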

How the data were processed

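Per the labels and the study's methods, the authors trimmed reads with Trim Galore 0.4.4, aligned them to mm9 with Bowtie2 2.3.4.1, removed multiply aligned and duplicate reads, multiplied Drosophila spike-in factors into the coverage and called peaks per library with MACS2 2.1.1.20160309 subcommands. The deposited peak lists give each peak's start, end and summit offset in bp, and a score whose definition, cutoff and use of the input were not given in the sources used here. The authors' table of joined regions gives a mean scaled signal over the 4 libraries, the only column used. Its other columns hold the authors' own DESeq2 1.38.0 comparison (fold change, its error, test statistic and p-values) and were not used. The number of further unused columns of per-sample values was 0.

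Each of the 57662 regions equalled a region made by merging the 4 lists. Where a library had several peaks in a region, the highest score was taken, with that peak's width. Log2 score and log2 width were fitted with limma 3.58.1 (R 4.3.3) on genotype, 2 libraries against 2, over the 30317 regions with peaks in all libraries. p-values were two-sided and adjusted by the Benjamini-Hochberg method over all of them, with a threshold of 0.05. The fit was tested on simulated data. An exact permutation test of 2 against 2 cannot go below p = 0.333 and was not used. Promoters were the 3000 bp upstream of a start in GENCODE vM1, and sequence came from the same build. Tables and plots were made in Python 3.11.15 with pandas 2.3.3 and matplotlib 3.10.9.

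Named regions were, per gene, those with the 2 highest authors' means, those at the gene's own promoter, and the 12 with the highest authors' mean among regions with peaks in one genotype alone. Lists and rules were chosen, like the genes, with earlier results of these data known. Alternatives were centring, the replicate block, leaving out each library, other thresholds, filters, overlaps and windows; leaving out a library from the counts of peaks was added after seeing the data. No pairing by replicate number was seen in the log2 scores (correlation of the replicate differences between genotypes, -0.003 over 30317 regions). Whether the libraries were prepared in pairs is not given by the labels.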

Additional observations from a re-analysis of the deposited data

How the results depend on the processing

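The 17 of 20 regions with a lower score in MUT_CTCF numbered 14 at an adjusted p of 0.01, 17 with summed scores or an authors' mean of at least 50, and 24 of 28 when regions with peaks in at least 2 libraries entered with missing peaks at the lowest score, whereas centring gave 0 and leaving out a library gave 0 to 13, with median differences of -1.13 to -0.92 against -1.01. The 28 regions were the 20 shared ones and the 8 with peaks in both WT_CTCF libraries and in no MUT_CTCF library. Both MUT_CTCF scores of these 8 were filled with the lowest score, so the direction of their difference was set by the filling. The 24 of 28 is therefore no separate evidence of a lower score. With the replicate block the number of the 20 with a lower score was 18, against 90.9% of all regions tested. For width it was 10, against 38.6%, and no other count moved by over 1.5 times. Over all regions, the 27395 lower and 19 higher scores became 975 and 591 with centring and 0 to 22295 and 0 to 11 without a library, and 6 were higher at an adjusted p of 0.01. For width, 12746 narrower regions became 333 with centring, 1202 at an adjusted p of 0.01 (0 wider) and 0 to 9549 without a library (0 to 8 wider). Among the 20 regions, the 12 narrower ones became 0, 0 and 0 to 10 in the same order.

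Centring turned the score difference positive at Mgea5 (0.11 at 3.4 kb downstream, 0.34 and 0.30 at 21.1 and 29.3 kb upstream), Gfpt1 (0.83, 0.23 and 0.79), Gfpt2 (0.33 in the intron), Gnpnat1 (0.33 in the exon and 0.42 at 11 kb upstream), Pgm3 (0.48 at the promoter and 0.18 at 11.8 kb upstream) and Uap1 (0.48 in the intron). It turned the width difference positive at Gfpt1 (0.27 and 0.39), Gfpt2 (0.07 in the intron) and Pgm3 (0.07 at the promoter), and leaving out WT_CTCF replicate 1 did so 28.4 kb past the end of Gfpt1 (-0.16 to 0.03 without a library).

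Counting only peaks that scored at or above the pooled median of 250 gave 12 shared regions, against 20. It gave 4 with peaks in both WT_CTCF libraries alone, against 8. Of those 8, only the Mapk9 region beside Gfpt2 reached that score. The rest of the 4 were regions shared without the cutoff, whose MUT_CTCF scores lay below it. The 2 counts were 4 and 3 of 8 regions in gene bodies alone and 10 and 4 of 16 in a window of 10 kb, and a window of 100 kb gave 37 and 14 of 67. Leaving out a library gave 20 to 20 and 8 to 11. Without mismatch, 2 regions matched the CTCF consensus. The cause of these changes was not tested, beyond fewer libraries, peaks or bases in each. Unknown depth and 2 libraries per genotype limit what can be seen, and a score is no read count.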
